A study of Mus musculus with 14 samples.

Results

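The genotype by surgery interaction asks how the response of the mouse heart to pressure overload differed when the chemokine gene Ccl24 was missing. It is the difference between the response to transverse aortic constriction (TAC) in Ccl24 knockout ventricles and the response to TAC in wild type ventricles. All 14 libraries of the series enter it: 2 wild type sham, 6 wild type TAC, 2 knockout sham and 4 knockout TAC. Ventricular RNA was collected 1 week after surgery in each group. TAC is a surgical band on the aortic arch that raises the load on the left ventricle, and sham mice are operated on without the band. No age, sex or strain is given in the labels used here, nor how the knockout allele was made. No gene passed an adjusted p of 0.05 when all libraries were used, so the genes below are described by their estimates, their spread and the share of all genes that lay past the same threshold.

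Ccl24, also called eotaxin-2, is a secreted CC chemokine made by macrophages among other cells, and it is best known as an attractant of eosinophils. Under pressure overload the heart adds macrophages, activates its fibroblasts, lays down matrix and switches cardiomyocyte genes towards a fetal pattern. Immediate early genes, which code for transcription factors and feedback inhibitors of kinase signalling, are transcribed within minutes of a stimulus without new protein synthesis.

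A positive interaction means that the knockout response lay above the wild type response, and a negative one that it lay below. Responses are called opposite where they had different signs and each was at least 0.25 on the log2 scale, and otherwise stronger or weaker without Ccl24 by their size. Levels are CPM, counts scaled to a common library size with TMM factors, and each difference is a log2 fold change with its standard error (SE). The 2 libraries of each sham group set the precision: the median SE was 0.241 for the interaction, 0.165 for the wild type response and 0.176 for the knockout response. The design text gives as many mice as there are libraries in each group, but no litter or operation day.

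The libraries held 17072262 to 33123052 counts. Mitochondrially encoded genes took 18.5% to 18.8% of them in wild type sham, 10.1% to 17.1% in wild type TAC, 20.5% to 23.7% in knockout sham and 14.9% to 19.2% in knockout TAC, and leaving these genes out before scaling gave 0 calls and 646 genes at the unadjusted threshold used below, against 647 with them. Ccl24 had 61 to 72 counts in wild type sham and 3 to 8 counts in the 6 knockout libraries. Of the libraries labelled wild type TAC, 5 held 56 to 105 Ccl24 counts and that of replicate 1 held 3, which is the knockout level. It goes against its label, and results are therefore given with and without it. Ventricular markers were abundant in every library, with 13200 to 26600 CPM of the myosin gene Myh6, and the atrial markers Myl7 and Sln reached at most 1.14 and 1.49 CPM. Eosinophil markers were close to 0, with 7 counts of the eotaxin receptor gene Ccr3 and 1 count of Epx over all 14 libraries.

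The interaction called 0 of 15876 genes, or 0%, with edgeR's quasi-likelihood test, and the smallest adjusted p was 0.107, for Sik1 and Apold1. DESeq2 called 6 genes and limma voom with sample weights called 5. At an unadjusted p under 0.05, the nominal threshold used from here on, 253 genes (1.59%) were higher and 394 (2.48%) lower. These 4.08% are fewer than the 5% that this threshold passes where no gene differs. Without wild type TAC replicate 1, 3 of 15880 genes passed the adjusted threshold, which is 0.0189%: Apold1, Cd163 and Casq1. The nominal counts were then 380 higher (2.39%) and 570 lower (3.59%).

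Genes of the immediate early response leaned to a stronger response without Ccl24, core macrophage genes leaned to a weaker one, and genes of resting fibroblasts leaned to lower responses. The plot of the knockout response against the wild type response shows these groups.

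**Figure D1:**
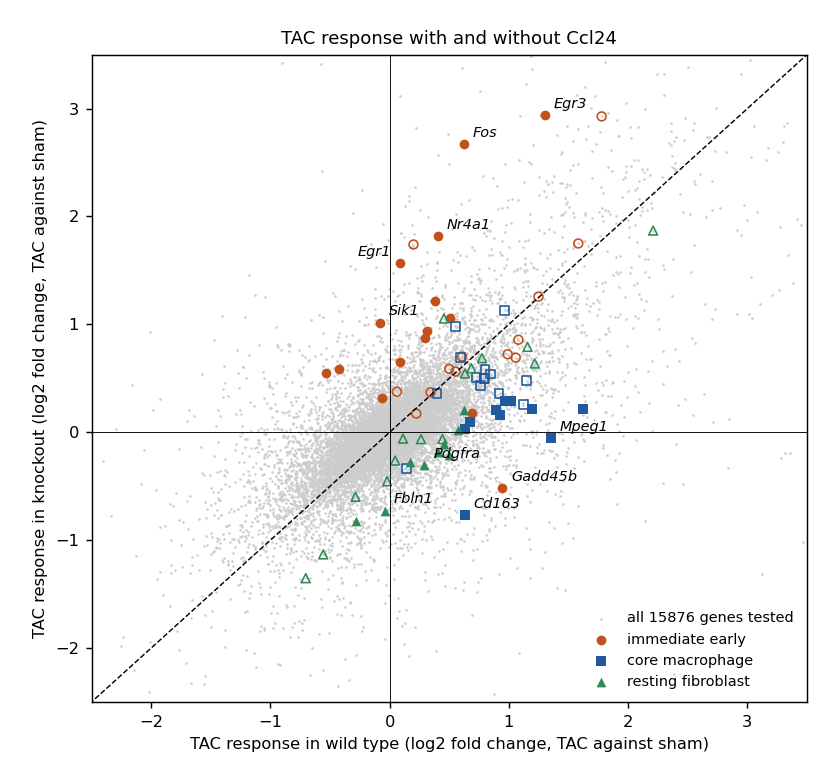
Log2 TAC response in knockout (vertical) against that in wild type (horizontal) for the genes tested, with 62 genes outside the plotted range. Filled symbols are list members at an unadjusted p under 0.05 for the interaction and open symbols the other members. The dashed line marks equal responses. Filled immediate early genes lie above it except for Gadd45b and Cyr61, and all filled core macrophage and resting fibroblast genes lie below it.

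Immediate early genes were the group with the most members on the higher side. Of the 28 members tested, 13 had a higher interaction at the nominal threshold, against 1.59% of all genes, and 2 had a lower one, against 2.48%. Their median interaction was 0.47, beside a median of -0.01 over all genes tested. In wild type 6 of the 28 rose after TAC at an adjusted p under 0.05, against 6.36% of all genes, and in knockout 11 rose, against 2.36%. Such counts are not a test of the difference between the genotypes. In 10 members every knockout TAC library lay above every wild type TAC library, which held for 2.44% of all genes. Leaving out wild type TAC replicate 1 gave 13 higher members and 1 lower member, against 2.39% and 3.59% of all genes in that fit. Leaving out each library in turn gave 9 to 13 higher members and 1 or 2 lower ones.

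The promoters of these genes often carry the cAMP response element (CRE), the site that CREB binds, and RefSeq promoter windows of GRCm38.p6 were available for 8 of the 13 higher members. Each window runs from 250 bases before to 50 after a start of transcription. The full element TGACGTCA lay in 2 of the 8 windows, those of Dusp1 and Btg2. It lay in 1.79% of all 32851 windows and in 2.87% of the windows of tested genes. The short form TGACG, searched on both strands, lay in 6 of the 8, against 20.8% of all windows and 29.1% of the windows of tested genes. A full element holds the short form on both strands. The CArG box, which serum response factor binds, was not found in these 8 windows. It lay in 1.63% of all windows and in 1.34% of the windows of tested genes. So few windows cannot tell a share that low from none. Windows were lacking for Sik1, Egr1, Egr3, Arc and Ier2. Over all immediate early members tested, 27 windows of 21 genes were available, of which 59.3% held the short form, 11.1% the full element and 18.5% the CArG box. The windows with the CArG box belonged to 2 genes. The windows of Dusp1 (chr17:26508423-26508722, minus strand), Nr4a1 (chr15:101266596-101266895, plus strand) and Fos (chr12:85473640-85473939, plus strand) are printed 5′ to 3′ as examples of a full element, of short forms on the reverse strand and of short forms on the forward strand, with the matches in capitals. A match describes the letters in the window and does not show that a factor was bound there.
Dusp1: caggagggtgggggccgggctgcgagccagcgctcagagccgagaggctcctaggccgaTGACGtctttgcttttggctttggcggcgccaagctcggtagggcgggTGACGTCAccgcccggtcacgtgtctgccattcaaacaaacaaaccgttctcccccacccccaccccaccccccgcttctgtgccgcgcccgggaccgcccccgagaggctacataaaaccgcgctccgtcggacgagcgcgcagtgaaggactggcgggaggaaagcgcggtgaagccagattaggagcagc
Nr4a1: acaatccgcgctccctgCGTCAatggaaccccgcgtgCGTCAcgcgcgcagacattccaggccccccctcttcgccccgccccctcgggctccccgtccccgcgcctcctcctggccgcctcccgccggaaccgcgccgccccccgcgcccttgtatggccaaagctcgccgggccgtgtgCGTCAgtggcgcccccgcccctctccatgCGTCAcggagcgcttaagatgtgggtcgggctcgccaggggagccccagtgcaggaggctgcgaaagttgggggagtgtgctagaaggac
Fos: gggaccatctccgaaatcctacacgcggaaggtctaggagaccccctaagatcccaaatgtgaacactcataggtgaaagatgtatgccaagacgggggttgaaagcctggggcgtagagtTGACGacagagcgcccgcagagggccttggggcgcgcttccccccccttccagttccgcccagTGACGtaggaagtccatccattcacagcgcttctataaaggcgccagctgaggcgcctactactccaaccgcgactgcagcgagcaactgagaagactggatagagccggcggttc

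Sik1, the salt-inducible kinase that CREB induces and that restrains CREB co-activators (17:31844250-31855804, minus strand, GRCm38), had the smallest p of the interaction. Its levels were 32.1 and 31.2 CPM in wild type sham and ran from 26.5 through a median of 29.8 to 33.1 in wild type TAC. They were 26.8 and 20.8 CPM in knockout sham and 53.7, 46.8, 40.3 and 51.6 in knockout TAC. The knockout TAC libraries were thus the high ones, and they did not overlap with any other library. The response was -0.08 (SE 0.12) in wild type and 1.02 (SE 0.13) in knockout, where it passed the test (adjusted p = 0.00223), and the interaction was 1.10 (SE 0.17, adjusted p = 0.107).

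Apold1, an early response gene of endothelial cells that belongs to no list used here (6:134981718-134986836, plus strand), had 15.9 and 12.9 CPM in wild type sham and 9.81 and 9.45 in knockout sham. Wild type TAC libraries ran from 10.7 through a median of 12.2 to 19.3, and knockout TAC libraries held 25.2, 28.3, 26.7 and 31.5. The 4 knockout TAC libraries lay above the other 10, and the highest wild type TAC value was that of replicate 1. The interaction was 1.65 (SE 0.27, adjusted p = 0.107), and without replicate 1 it was 1.78 (SE 0.19, adjusted p = 0.00115). The response passed the test in knockout (1.54, adjusted p = 0.0024) and was -0.12 in wild type.

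The nuclear receptor gene Nr4a1 and the zinc finger gene Egr1 code for transcription factors of the same early wave. Nr4a1 had 22.6 and 21.6 CPM in wild type sham, 21.5 to 37.0 with a median of 30 in wild type TAC, 12.4 and 13.5 in knockout sham, and 62.5, 38.2, 42.1 and 40.2 in knockout TAC. Its interaction was 1.42 (SE 0.30, adjusted p = 0.701), and 1 knockout TAC library stood well above the other 3. Egr1 had 17.6 and 19.2 CPM in wild type sham, 11.1 to 22.6 with a median of 22.2 in wild type TAC, 14.5 and 11.7 in knockout sham, and 41.8, 42.6, 35.3 and 35.2 in knockout TAC. Its knockout TAC libraries did not overlap with any other group. The Egr1 interaction was 1.48 (SE 0.32, adjusted p = 0.701), and without wild type TAC replicate 7, which had the lowest Egr1 level of its group, it was 1.38 with an adjusted p of 0.0207. Both genes rose after TAC in knockout (1.82 and 1.57, adjusted p = 0.00301 and 0.0051), and their wild type responses of 0.40 and 0.09 did not pass.

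Among the AP-1 genes, whose products pair as Jun and Fos dimers, Jun had an interaction of 0.58 (SE 0.14) and Fos one of 2.05 (SE 0.75). Jun levels were 69.6 to 80.2 CPM in knockout TAC, above the 44.8 to 58.3 of wild type TAC. Fos was a low gene, at 6.27 to 9.23 CPM in knockout TAC and 1.87 to 8.90 in wild type TAC, and these ranges overlapped. Junb, Jund, Fosl2 and Atf3 had interactions of 0.01, 0.09, 0.09 and 0.17, so the lean did not extend to every AP-1 gene. Egr3 rose in both genotypes, by 1.30 in wild type and 2.94 in knockout (adjusted p = 0.019 and 0.00223). Its interaction of 1.64 (SE 0.47) came with 1.18 and 1.37 CPM in knockout sham against 3.07 and 3.15 in wild type sham, while its TAC ranges overlapped.

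Dusp1, a phosphatase that switches off MAP kinases, had 56.0 and 55.0 CPM in wild type sham, 31.4 to 52.8 with a median of 41.8 in wild type TAC, 52.2 and 54.0 in knockout sham, and 82.1, 63.8, 84.1 and 89.2 in knockout TAC. The sham libraries of both genotypes lay close together, with all knockout TAC libraries above them and 5 of the 6 wild type TAC libraries below. The responses had opposite signs, -0.43 in wild type and 0.59 in knockout, neither past the adjusted threshold, and the interaction was 1.01 (SE 0.24, adjusted p = 0.879). Spry4, a feedback inhibitor of receptor tyrosine kinases that was not on the list, had an interaction of 0.88 (SE 0.20), with 26.8 to 32.2 CPM in knockout TAC and 14.4 to 22.2 in wild type TAC. The other members at the nominal threshold were Ier5 (0.84), Klf4 (0.38), Ier2 (0.63), Arc (1.08), Btg2 (0.55) and Klf2 (0.57).

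The 2 members on the lower side were Gadd45b, a stress sensor upstream of p38 and JNK kinases, and Cyr61, a matricellular protein gene. Gadd45b had 4.52 and 3.50 CPM in wild type sham, 4.53 to 10.9 with a median of 7.78 in wild type TAC, 5.34 and 5.29 in knockout sham, and 3.95, 3.67, 3.62 and 3.56 in knockout TAC. All knockout TAC libraries lay below all wild type TAC libraries, of which replicate 1 was the lowest. It rose in wild type (0.94, adjusted p = 0.0259) and had a response of -0.52 in knockout, and the interaction was -1.46 (SE 0.35, adjusted p = 0.934). Cyr61 had an interaction of -0.51 (SE 0.24).

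Ppp1r10 and Pmf1, also on no list, completed the 10 genes with the smallest p on the higher side, after Sik1, Apold1, Nr4a1, Egr1, Spry4, Dusp1, Jun and Ier5. Ppp1r10, a nuclear targeting subunit of protein phosphatase 1 (17:35916434-35932283, plus strand), had 42.7 and 32.8 CPM in wild type sham, 20.9 to 31.7 in wild type TAC, 33.0 and 32.6 in knockout sham, and 43.3 to 48.1 in knockout TAC. It fell after TAC in wild type (-0.52, adjusted p = 0.0209) and its knockout response of 0.49 did not pass (adjusted p = 0.0674), which gave an interaction of 1.01 (SE 0.19, adjusted p = 0.348). Pmf1, a kinetochore gene, had an interaction of 0.69 (SE 0.17) with levels of 7.98 to 12.8 CPM in all 4 groups.

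**Figure D2:**
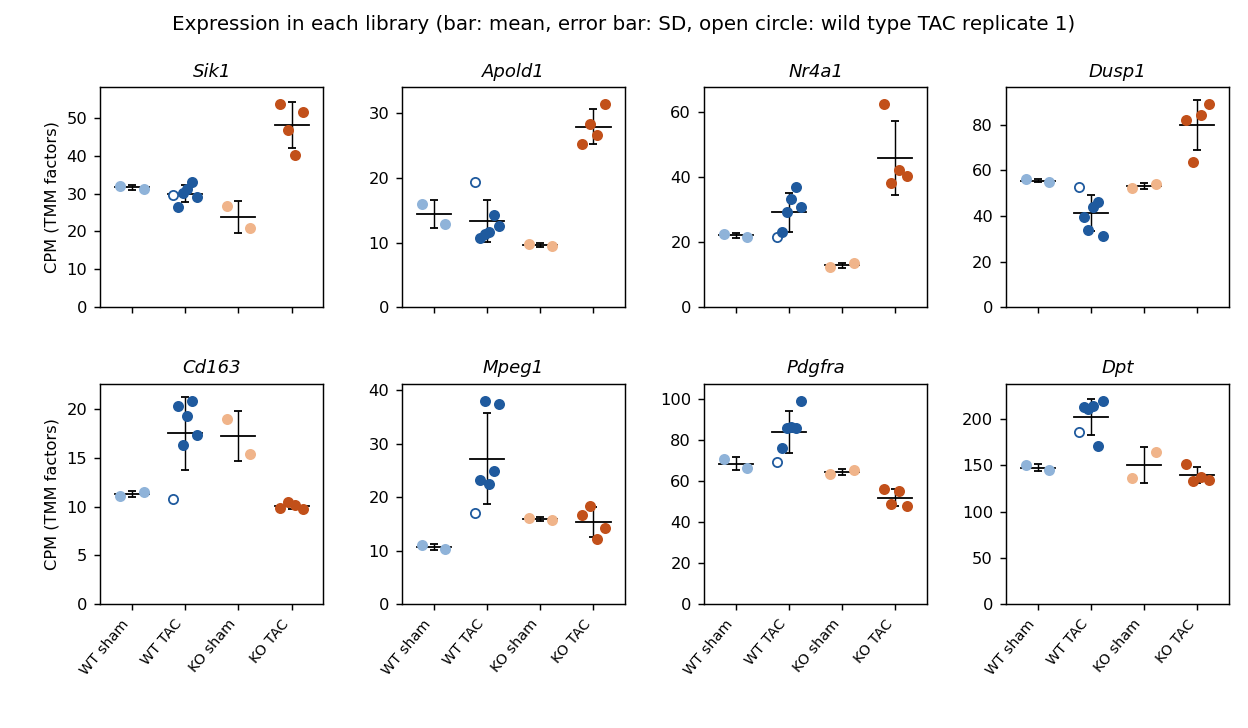
CPM in each library for 4 genes with a higher interaction (top row) and 4 with a lower one (bottom row), by group, each vertical axis starting at 0. Bars are group means and error bars are SDs, and the open circle is wild type TAC replicate 1. Sik1, Apold1, Nr4a1 and Dusp1 are high in knockout TAC, whereas Cd163, Pdgfra and Dpt are lower in knockout TAC than in all wild type TAC libraries.

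Core macrophage genes leaned the other way. Of 24 members tested, 10 had a lower interaction at the nominal threshold, against 2.48% of all genes, and none had a higher one, against 1.59%. The median interaction was -0.57. In wild type 19 of the 24 rose after TAC, against 6.36% of all genes. In knockout none of the 24 rose and 1 fell, against 2.36% and 1.73%. Numbers of called responses are not a test of the difference. Over all genes their order turned when each genotype was fitted on its own libraries. The members' median response was 0.82 in wild type and 0.33 in knockout, and their median difference between the genotypes after sham was 0.01. Without wild type TAC replicate 1, 13 members were lower, against 3.59% of all genes in that fit, and the median was -0.65.

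Cd163, the haemoglobin-haptoglobin scavenger receptor of tissue macrophages (6:124304656-124330527, plus strand), had the smallest p on the lower side among all genes. Its levels were 11.1 and 11.5 CPM in wild type sham and 10.8 in wild type TAC replicate 1. The other wild type TAC libraries held 16.3 to 20.8. They were 19.0 and 15.4 in knockout sham and 9.84, 10.5, 10.2 and 9.77 in knockout TAC. The knockout TAC libraries lay below every other library. Cd163 rose in wild type (0.63, adjusted p = 0.0408) and fell in knockout (-0.77, adjusted p = 0.0327), so the responses were opposite, with an interaction of -1.40 (SE 0.27, adjusted p = 0.348). Without replicate 1 the interaction was -1.50 (SE 0.17, adjusted p = 0.00204).

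Mpeg1, the pore-forming protein of phagocytes, had 11.1 and 10.2 CPM in wild type sham, 17.1 to 38.0 with a median of 24.1 in wild type TAC, 16.2 and 15.7 in knockout sham, and 16.6, 18.4, 12.1 and 14.2 in knockout TAC. It rose in wild type (1.35, adjusted p = 0.0147), and in knockout the response was -0.05, with an interaction of -1.40 (SE 0.39, adjusted p = 0.997). The TAC groups overlapped only through wild type TAC replicate 1. The NADPH oxidase gene Cybb and the mannose receptor gene Mrc1 also rose in wild type (0.92 and 0.68) with responses of 0.16 and 0.10 in knockout. The remaining lower members were Fcer1g (-0.73), Itgam (-0.98), Csf1r (-0.61), Lyz2 (-0.68), Ms4a7 (-1.41) and Adgre1 (-0.68), the gene of F4/80. Adgre1 libraries held 10.6 to 20.1 CPM in wild type TAC and 6.54 to 10.1 in knockout TAC, without overlap. Only in 2 of the 24 core members, Cd163 and Adgre1, did all knockout TAC libraries lie below all wild type TAC libraries. This held for 4.08% of all genes.

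Not every macrophage gene followed. The lysosomal marker Cd68 had an interaction of -0.31 (SE 0.25), C1qa, C1qb and C1qc had -0.29, -0.22 and -0.22, and the fractalkine receptor gene Cx3cr1 had 0.42 (SE 0.40). The summed level of the 24 genes was 592 to 610 CPM in wild type sham, 756 to 1430 in wild type TAC, 604 to 630 in knockout sham and 663 to 887 in knockout TAC. In whole tissue fewer cells of a type and less RNA per cell cannot be told apart. Among 15 genes of resident macrophages 2 were lower, against 2.48% of all genes, Cd163 and Mrc1, which are also core members. Among 18 genes of monocytes and recruited macrophages 0 were past the nominal threshold in either direction, with a median of -0.51. Without wild type TAC replicate 1, 3 of these 18 were higher at the nominal threshold, against 2.39% of all genes. The core macrophage count depended on single libraries: it was 2 and 3 when wild type sham replicate 2 or 1 was dropped, and 4 and 6 when knockout sham replicate 1 or 2 was. Dropping replicate 4 or 5 of knockout TAC gave 5, and dropping replicate 3 of wild type TAC gave 6. With all libraries kept, limma voom gave 6.

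Resting fibroblast genes formed the second group on the lower side. Of 24 members tested, 9 were lower at the nominal threshold, against 2.48% of all genes, and none were higher, against 1.59%. The median interaction was -0.44, and 23 of the 24 estimates were negative. Of the 9, Pdgfra had an opposite response, Fbln1, Htra3 and Abca8a had a larger response in knockout, and the other 5 a smaller one. In wild type 9 members rose after TAC, against 6.36% of all genes. In knockout 1 rose, against 2.36%, and 4 fell, against 1.73%. Here too these counts are not a test of the difference between the genotypes. In 10 members all knockout TAC libraries lay below all wild type TAC libraries, against 4.08% of all genes. Without wild type TAC replicate 1, 10 members were lower, against 3.59% of all genes in that fit, and the median was -0.50.

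Pdgfra, the platelet-derived growth factor receptor that marks cardiac fibroblasts, had 70.6 and 66.3 CPM in wild type sham, 69.2 to 99.2 with a median of 85.8 in wild type TAC, 63.2 and 65.2 in knockout sham, and 55.9, 48.7, 55.1 and 47.9 in knockout TAC. The sham groups lay side by side and the TAC groups did not overlap. The responses of 0.29 in wild type and -0.31 in knockout were opposite, neither past the adjusted threshold, and the interaction was -0.60 (SE 0.17, adjusted p = 0.997). Dpt, which codes for the matrix protein dermatopontin, had 150 and 144 CPM in wild type sham, 171 to 220 in wild type TAC, 136 and 164 in knockout sham, and 152, 134, 138 and 134 in knockout TAC. It rose in wild type (0.46, adjusted p = 0.019) with a response of -0.11 in knockout, and the interaction was -0.57 (SE 0.16).

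Tcf21, the transcription factor of epicardium-derived fibroblasts, had an interaction of -0.59 (SE 0.24), with 8.22 to 10.9 CPM in knockout TAC and 14.5 to 20.7 in wild type TAC. Fibulin gene Fbln1 and the serine protease gene Htra3 fell in knockout (-0.73 and -0.82, adjusted p = 0.0434 and 0.019) and had responses of -0.04 and -0.29 in wild type. The other lower members were C1ra (-0.70), Abca8a (-0.45), Dcn (-0.55) and Igfbp4 (-0.42). Cd34, Ly6a and Cd248, by contrast, had interactions of -0.09 each. The fibroblast count was 4 when either wild type sham library or knockout sham replicate 2 was left out.

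Matrix genes rose strongly in wild type, and their interaction was less clear. Of 40 extracellular matrix genes, 28 rose in wild type, against 6.36% of all genes, and 3 rose in knockout, against 2.36%. At the nominal threshold for the interaction itself 3 were lower, Dcn, Eln and Mmp2, against 2.48% of all genes. None were higher, against 1.59%. No member passed the adjusted threshold for the interaction. The difference in the number of called responses was thus not matched by calls of the difference between them. The median response was 1.68 in wild type and 1.20 in knockout, and the median interaction was -0.45, with 36 of 40 estimates negative. The median was -0.16 when replicate 7 of wild type TAC was dropped and -0.30 when replicate 4 of knockout TAC was. Without wild type TAC replicate 1 the lower members were 4, against 3.59% of all genes in that fit, and the median was -0.52. The 3 members became 0 when either wild type sham library or knockout sham replicate 2 was dropped, 1 when knockout sham replicate 1, replicate 4 of knockout TAC or replicate 3 of wild type TAC was, and 5 when replicate 2 of wild type TAC was.

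Col1a1, the fibrillar collagen I gene, had 294 and 241 CPM in wild type sham, 483 to 2180 with a median of 995 in wild type TAC, 186 and 167 in knockout sham, and 650, 608, 312 and 387 in knockout TAC. The wide range within wild type TAC overlapped with the knockout TAC libraries. The interaction of Col1a1 was -0.54 (SE 0.74) and that of Col3a1 -0.68 (SE 0.64), both smaller than their SE or close to it. Postn, the periostin gene of activated fibroblasts, had 0.25 (SE 0.87). Eln, which codes for elastin, rose in wild type (1.85, adjusted p = 0.0278) with a response of 0.34 in knockout and an interaction of -1.52 (SE 0.61). Mmp2, a gelatinase gene, rose in wild type (0.93, adjusted p = 0.0416), and its knockout TAC libraries of 108 to 154 CPM lay below the 174 to 445 of wild type TAC. Among 22 activated fibroblast genes 0 were past the nominal threshold, with a median of -0.44, and of -0.18 when replicate 7 of wild type TAC was dropped.

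Of 24 complement and coagulation genes 6 were lower at the nominal threshold, against 2.48% of all genes, and 1 was higher, against 1.59%. The median was -0.25, and -0.13 when replicate 7 of wild type TAC was dropped. C4b, the classical pathway component, had 23.0 and 16.3 CPM in wild type sham, 27.8 to 42.7 in wild type TAC, 32.6 and 30.8 in knockout sham and 26.9 to 35.9 in knockout TAC, so that the knockout sham libraries already stood at the TAC level. It rose in wild type (0.76, adjusted p = 0.0152), with an interaction of -0.71 (SE 0.24). C1ra, C1s1, Serping1 and the thrombomodulin gene Thbd were also lower (-0.70, -0.48, -0.48 and -0.40), and the urokinase receptor gene Plaur was higher (1.04). The 6 became 0 and 3 when wild type sham replicate 2 or 1 was dropped, 1 when knockout sham replicate 2 was and 3 when replicate 2 of knockout TAC was. Plaur no longer passed when either wild type sham library, or replicate 2 or 5 of knockout TAC, was dropped.

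Genes of other immune cells were low and noisy. All 9 neutrophil genes tested had a negative interaction, with a median of -1.60, and 3 passed the nominal threshold on the lower side, against 2.48% of all genes, Mmp9, S100a8 and Csf3r. S100a8, a subunit of calprotectin, had 1.19 and 1.17 CPM in wild type sham, 2.52 and 3.43 in knockout sham, 1.55 to 2.47 in knockout TAC, and 1.25 to 7.85 in wild type TAC, where replicates 6 and 7 held 7.85 and 6.23 and the other 4 at most 2.57. The neutrophil count was 0 when wild type sham replicate 2 was dropped, and 1 when wild type sham replicate 1, knockout sham replicate 2, replicate 4 or 5 of knockout TAC or replicate 7 of wild type TAC was. Of 27 chemokine and receptor genes Cxcl14, Ccl8 and Ackr1 were lower (-1.18, -1.49 and -2.11), against 2.48% of all genes, and Cxcl1 higher (1.26), against 1.59%. Cxcl14 had 53.6 and 70.2 CPM in knockout sham against 13.9 and 15.2 in wild type sham, and it fell after TAC in knockout (-1.03, adjusted p = 0.0332). Class II antigen presentation genes had a median of -0.55. Of the 14 tested 1 was lower, against 2.48% of all genes, the class II activator Ciita (-1.11). Lymphocyte and interferon response genes had 0 members past it, of 15 and 28.

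Cell cycle genes rose in both genotypes. Of 30 mitosis genes 25 rose in wild type and 29 in knockout, against 6.36% and 2.36% of all genes. The median response was 1.74 in wild type and 2.34 in knockout, and the median interaction 0.60, with 28 of 30 estimates positive. For the interaction 2 members were higher at the nominal threshold, against 1.59% of all genes, and none were lower, against 2.48%. The 2 were the condensin gene Ncapg (2.01, SE 0.78) and the shugoshin gene Sgo1 (2.11, SE 0.97). Ncapg had 0.725 and 0.304 CPM in wild type sham, 0.569 to 2.48 in wild type TAC, 0.257 and 0.343 in knockout sham, and 3.18 to 4.51 in knockout TAC. Cdk1, the mitotic kinase, had 3.30 to 8.08 CPM in wild type TAC and 8.97 to 14.5 in knockout TAC, without overlap, but its interaction was 0.30 (SE 0.54), since the knockout sham libraries were also above the wild type sham libraries. Without wild type TAC replicate 1, 5 mitosis genes were higher, against 2.39% of all genes in that fit. The count fell when knockout sham replicate 1 was dropped and was 4 when replicate 4 of knockout TAC was. It was 1 when wild type sham replicate 2, replicate 2 or 5 of knockout TAC or replicate 2, 3 or 7 of wild type TAC was dropped. For 30 DNA replication genes the median was 0.21 and 0 passed.

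Cardiomyocyte genes responded to load in both genotypes with few differences. Of 28 load-induced genes 9 rose in wild type, against 6.36% of all genes, and 8 in knockout, against 2.36%. For the interaction 2 were higher at the nominal threshold, against 1.59%, Ankrd1 and Ankrd23, which code for sarcomere-linked stress proteins. Ankrd1 had 4420 and 4620 CPM in wild type sham, 5250 to 8380 in wild type TAC, 2510 and 2540 in knockout sham, and 5340 to 8020 in knockout TAC. Its TAC groups overlapped, whereas its knockout sham libraries lay below both wild type sham libraries, and the interaction was 0.81 (SE 0.25). The response passed in both genotypes (0.57 and 1.38, adjusted p = 0.0466 and 0.00301). Casq1, the calsequestrin gene of skeletal muscle, had the same shape: 39.4 and 40.9 CPM in knockout sham, 80.1 and 79.1 in wild type sham, 82.5 to 101 in knockout TAC and 81.3 to 140 in wild type TAC. Its interaction was 0.89 (SE 0.23), and 1.00 (SE 0.15, adjusted p = 0.0361) without wild type TAC replicate 1, whose 140 CPM was the highest of its group. Casq1 was singled out after its values were seen.

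The natriuretic peptide gene Nppb rose in wild type and in knockout (1.15 and 1.50, adjusted p = 0.017 and 0.0106), with an interaction of 0.35 (SE 0.36). Nppa and the fetal myosin gene Myh7 had -0.00 (SE 0.90) and -0.02 (SE 0.31), and skeletal actin Acta1 had 0.64 (SE 0.33). The mitochondrial co-activator gene Ppargc1a fell in both genotypes (-0.93 and -0.79, adjusted p = 0.00517 and 0.0117), with an interaction of 0.14 (SE 0.22). Fatty acid oxidation, contraction and ion handling, glycolysis, the nuclear respiratory chain and cytosolic ribosomal proteins had medians of 0.09, 0.09, -0.02, -0.04 and -0.10, with 1 member past the nominal threshold among the 5 lists. That member was the acyl-CoA thioesterase gene Acot1 (-1.12, SE 0.52). Of all genes, 4.08% were past that threshold in either direction. Of 15 mitochondrially encoded genes 1 was higher, mt-Atp6 (1.07), against 1.59% of all genes, and the median was -0.05.

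Stress chaperones showed a small shift. Dnajb1, an HSP40 co-chaperone, had 20.3 and 19.1 CPM in wild type sham, 20.6 to 22.7 in wild type TAC, 22.1 and 16.6 in knockout sham, and 27.5, 29.3, 32.0 and 33.5 in knockout TAC. The knockout TAC libraries lay above all others, and the gene rose in knockout (0.66, adjusted p = 0.00687), with an interaction of 0.54 (SE 0.16). Hsph1 was the other of 20 heat shock genes on the higher side (0.40), against 1.59% of all genes. Atf4, the effector of the integrated stress response, was the 1 higher member of 21 (0.34), against the same 1.59%. The 20 chaperones of the endoplasmic reticulum had a median of -0.09 with 0 past the nominal threshold.

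Clock genes stood apart between the genotypes already after sham. Of 22 members 3 were higher and 3 lower at the nominal threshold, against 1.59% and 2.48% of all genes, and the median difference between knockout and wild type was -0.63 after sham and -0.52 after TAC. Dbp, a clock output factor, had 137 and 120 CPM in wild type sham, 69.0 to 158 in wild type TAC, 39.4 and 37.1 in knockout sham, and 64.9 to 103 in knockout TAC, with an interaction of 1.21 (SE 0.37). Arntl, the clock activator BMAL1, had 1.45 and 2.49 CPM in wild type sham, 1.42 to 7.43 in wild type TAC, 17.0 and 16.4 in knockout sham, and 7.46 to 11.8 in knockout TAC, with an interaction of -1.76 (SE 0.74). The clock repressor gene Ciart (1.63) and Usp2 (0.52) were the other higher members, and Clock (-0.36) and Nfil3 (-0.70) the other lower ones. In both Dbp and Arntl the knockout sham libraries stood farthest from wild type, and the sham differences of -1.75 and 3.09 did not pass the adjusted threshold (adjusted p = 0.06 and 0.105). The hour of tissue collection is not given in the sources used here, and the part of the clock difference in the other results was not tested. The clock counts ran from 2 to 5 higher and from 0 to 3 lower as single libraries were left out. The lower count was 0 when knockout sham replicate 1 was dropped, and 1 when knockout sham replicate 2, replicate 4 of knockout TAC, either wild type sham library or replicate 7 of wild type TAC was. The higher count was 5 when replicate 2 or 7 of wild type TAC was dropped.

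**Figure D3:**
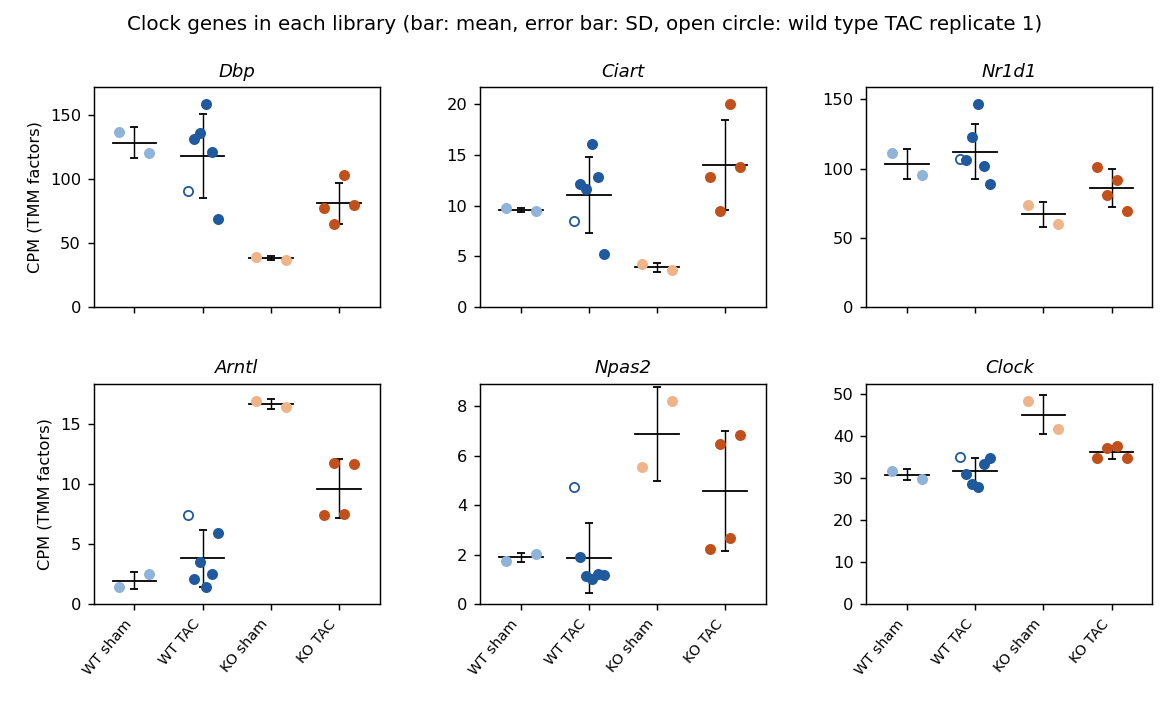
CPM of 6 clock genes in each library by group, each vertical axis starting at 0. Bars are means, error bars SDs, and the open circle is wild type TAC replicate 1. Beside wild type sham, the knockout sham libraries are low for Dbp, Ciart and Nr1d1 and high for Arntl, Npas2 and Clock. The knockout TAC libraries lie between those groups for Dbp, Arntl and Clock.

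Vascular genes gave a mixed picture. Of 24 angiogenesis genes 2 were lower and 1 was higher at the nominal threshold, against 2.48% and 1.59% of all genes. Of 23 neurohumoral genes 3 were lower, against 2.48% of all genes, and none were higher, against 1.59%. Their median was -0.12. Edn1, the endothelin gene, had 5.47 to 7.20 CPM in wild type TAC and 3.93 to 4.79 in knockout TAC, with an interaction of -0.79 (SE 0.23), and the von Willebrand factor gene Vwf had 66.5 to 92.3 and 39.2 to 59.8 CPM, with -0.77 (SE 0.23). In both, the TAC groups did not overlap, and the responses of 0.34 and 0.40 in wild type and of -0.45 and -0.37 in knockout did not pass the test. Egfl7, an endothelial secreted factor, had an interaction of 0.71 (SE 0.31). The 23 endothelial genes had a median of 0.02, with Vwf lower and Egfl7 higher. Angptl7 had 3.43 to 42.6 CPM in wild type TAC, the lowest in replicate 1, and 2.80 to 4.94 in knockout TAC, with an interaction of -2.32 (SE 0.95) and of -2.55 without that library.

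Genes with an opposite response made up 3.45% of all genes tested, 22.1% of the 253 higher genes and 25.6% of the 394 lower genes, where the sign of the interaction and the opposite signs are linked by construction. The 5 with the smallest p were Ppp1r10, Cd163, H19, Eda and Dtx4. H19, an imprinted long noncoding RNA (7:142575529-142578143, minus strand), had 7.12 and 4.82 CPM in wild type sham, 8.65 to 12.9 in wild type TAC, 12.2 and 8.42 in knockout sham, and 7.95, 7.80, 6.72 and 6.67 in knockout TAC. The TAC groups did not overlap. It rose in wild type (0.82, adjusted p = 0.0209) and its knockout response was -0.50, with an interaction of -1.32 (SE 0.28, adjusted p = 0.701). Eda, the ectodysplasin gene, and Dtx4, of the Deltex family of Notch regulators, had interactions of -1.02 (SE 0.23) and -0.65 (SE 0.15). Of the 101 opposite genes on the lower side the wild type response was the positive one, and of the 56 on the higher side the knockout response was.

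The interaction can also be read as the knockout minus wild type difference after TAC less that after sham, and either difference could be the larger. Among the 20 genes with the smallest p, 12 had the larger difference after TAC and 8 after sham. Rgs2, a brake on Gq-coupled receptors, had 12.3 and 12.4 CPM in wild type sham and 23.2 and 16.9 in knockout sham, and its TAC groups overlapped at 8.94 to 11.8 and 9.02 to 10.8. It fell in knockout (-1.03, adjusted p = 0.00301), with an interaction of -0.76 (SE 0.20). Ano10 and Tcp11l2 had the same shape, with 80.6 and 102 CPM and with 108 and 105 CPM in knockout sham against 45.0 and 41.9 and against 68.1 and 65.3 in wild type sham. Clmp, a cell adhesion gene, and Cited2, a regulator of CBP and p300, completed the 10 lower genes, at -0.84 (SE 0.22) and -0.94 (SE 0.25). Of all 647 genes at the nominal threshold, the sham difference was the larger in 164 of the 253 higher and in 219 of the 394 lower genes, beside 8126 of all 15876 genes.

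**Figure D4:**
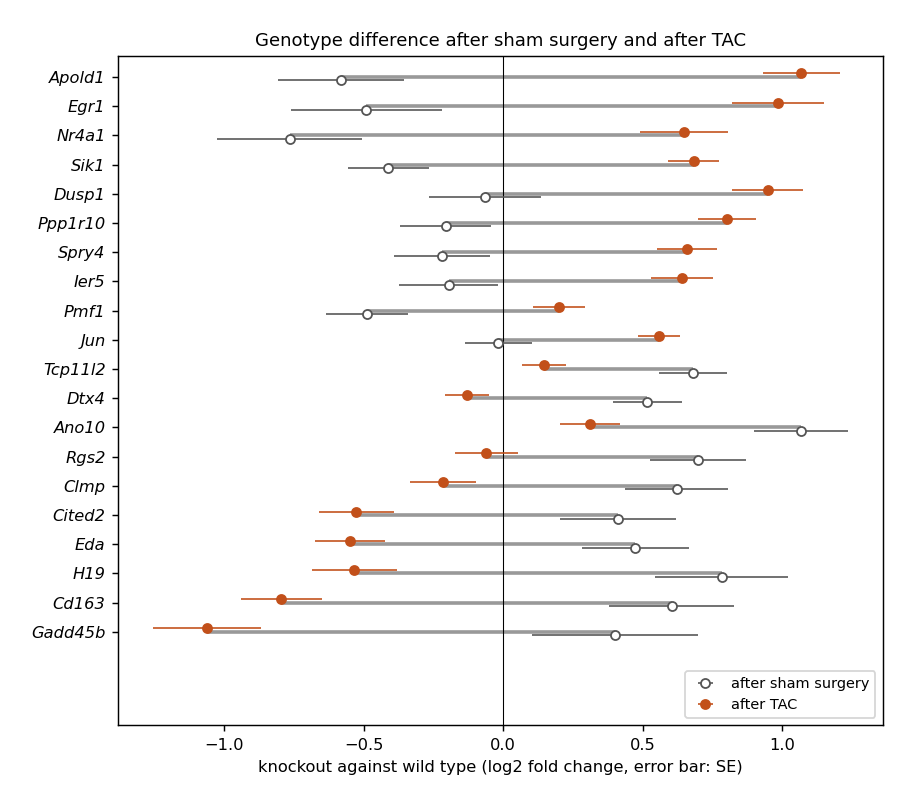
Knockout against wild type log2 fold change after sham (open) and after TAC (filled) for the 10 genes with the smallest interaction p in each direction, with SE bars, and a grey line whose length is the interaction. Dusp1 and Jun differ after TAC with a sham difference near 0, whereas Rgs2, Ano10 and Tcp11l2 differ mainly after sham.

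Across the 41 lists the medians ran from -1.60 for neutrophil genes to 0.89 for erythroid genes. The 8 erythroid and 12 epicardial genes had medians of 0.89 and 0.74 with 0 members past the nominal threshold, and they moved with single libraries: the erythroid median was 0.28 and 1.62 when knockout sham replicate 1 or 2 was dropped and 0.44 when replicate 2 of knockout TAC was. The epicardial median was 1.60 when knockout sham replicate 1 or wild type sham replicate 2 was dropped, and 0.14 when wild type sham replicate 1 was. The monocyte median was -0.14 when replicate 7 of wild type TAC was dropped and -0.31 when knockout sham replicate 2 was. The class II median was -0.27 when replicate 3 of wild type TAC was dropped and -0.32 when wild type sham replicate 2 was, and the mitosis median was 0.38 when replicate 2 of knockout TAC was. The summed erythroid level was 243 to 927 CPM in knockout TAC and 186 to 285 in wild type TAC. Neither immune, stromal nor erythroid content was adjusted for, and their part in the other results was not tested. Leaving out wild type TAC replicate 1 moved the list medians by under 0.1, as the plot by list shows, except for chemokines and receptors, whose median went from -0.24 to -0.06.

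**Figure D5:**
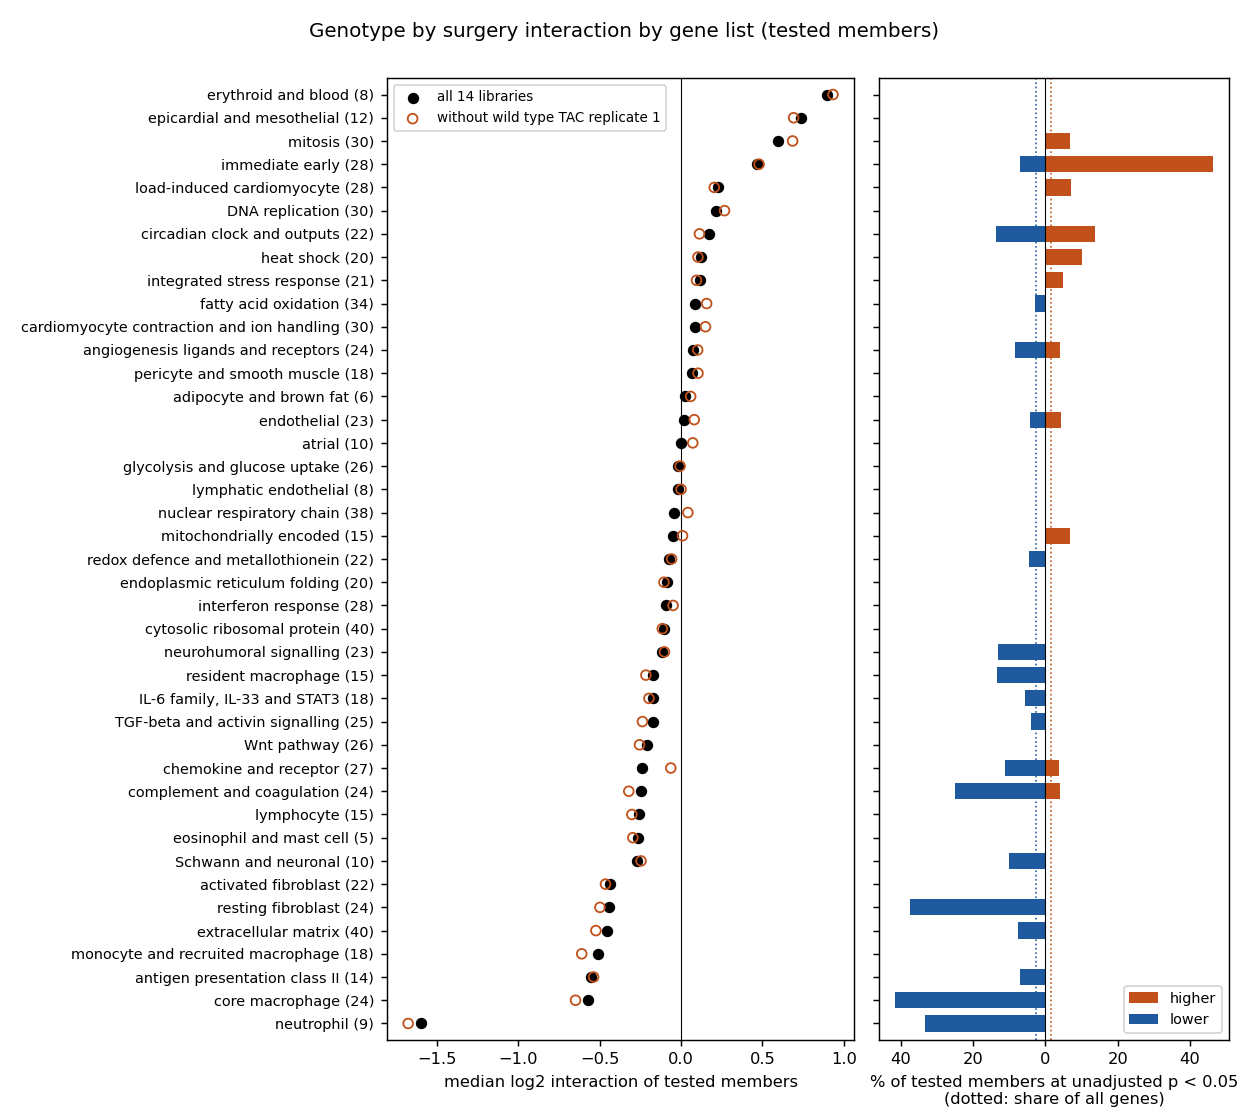
Left, the median log2 interaction of the tested members of each of 41 lists with all 14 libraries (filled) and without wild type TAC replicate 1 (open), with the number of members in brackets. Right, the percentage of members at an unadjusted p under 0.05 on the higher and the lower side, with dotted lines at the shares of all genes, 1.59% and 2.48%. The bars stand out for immediate early genes on the higher side and for core macrophage, resting fibroblast, neutrophil and complement genes on the lower side. Some lists share lower members, such as C1ra (resting fibroblast and complement) and Dcn (resting fibroblast and extracellular matrix).

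Called responses differed in number between the genotypes, but this is not a test of the difference. In the fit over all 14 libraries 1009 genes rose (6.36%) and 921 fell (5.8%) in wild type, and 374 rose (2.36%) and 274 fell (1.73%) in knockout. The order turned when each genotype was fitted on its own libraries, with 736 genes called in wild type and 1458 in knockout. The 1009 genes called higher in wild type had a median response of 0.75 there and 0.47 in knockout. The 374 genes called higher in knockout had 0.82 in wild type and 1.08 in knockout. Each set was chosen on the larger of its own responses, so these medians are a description.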

How the data were processed

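Polyadenylated RNA of ventricular heart tissue was sequenced in 14 libraries in 4 groups by genotype and surgery. The authors deposited raw counts (whole numbers of reads) for 54532 Ensembl IDs. The submitters' processing notes name FastQC, HISAT2 2.1.0, featureCounts, edgeR and the build GRCm38. The sources used here give no settings, annotation release or strand, so counts of overlapping genes and of near-identical copies are uncertain. Coordinates come from GENCODE M21, which held 54409 of the IDs. A total of 102 symbols belonged to more than 1 ID, and 27 symbols were whole numbers.

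Counts were analysed with edgeR 4.0.16 in R 4.3.3: filterByExpr on the group (15876 genes), TMM scaling, glmQLFit (robust) on 4 group means over all libraries, quasi-likelihood F tests and Benjamini-Hochberg adjustment over all genes tested, at a threshold of 0.05. The SE is the size of a log2 fold change divided by the square root of F. Total counts of 17072262 to 33123052 put 3 counts at 0.0906 to 0.176 CPM. Pairs of libraries within a group differed beyond sampling noise (chi-square per degree of freedom 4.55 to 176), so each counted as 1 replicate. The steps were also run on simulated counts with the same spread for every gene, which is no test of how these libraries vary.

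Lists (41, with 833 of 896 genes tested) are described by counts and medians, without a set test. The lists, the rule for naming genes and the comparison itself were chosen with earlier results of these data known. The rule takes Ccl24, the 10 genes with the smallest p in each direction at a mean of at least 1 CPM (no gene passed the adjusted threshold), up to 3 members per list, 15 fixed genes and the 5 opposite genes with the smallest p, leaving out gene models named only by number or clone. Members named beyond it complete a count or show a contrast, and were chosen after their values were seen. Alternatives were RLE scaling, mitochondrially encoded genes left out, other filters, limma 3.58.1 voom with and without sample weights, DESeq2 1.42.0, a fit without the robust option, a replicate block, fits within a genotype, and leaving out each library. Promoter windows come from RefSeq on GRCm38.p6. The values of 1 list member are not reported here.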

Additional observations from a re-analysis of the deposited data

Results flagged for a closer look

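Among the 36 genes that were checked for a library far from the rest of its TAC group, 3 were found in 72 groups of 4 or 6 libraries, and chance flags about 1 in 20 such groups. Nr4a1 was 62.5 CPM in knockout TAC replicate 1, and the other 3 libraries held 38.2 to 42.1. Dtx4 was 14.1 CPM in wild type TAC replicate 6, and the other 5 held 15.7 to 16.3. The macrophage gene Cd68 was 13.4 CPM in wild type TAC replicate 1, the library at the knockout level of Ccl24, and the other 5 held 19.8 to 22.4.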

How the results depend on the processing

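The count of genes called for the interaction, 0 with all libraries, was 3 without a filter on low counts, 5 with voom sample weights and 6 with DESeq2, and ran from 0 to 3 as each library was left out (3 without wild type TAC replicate 1, and 1 when replicate 4 of knockout TAC or replicate 7 of wild type TAC was dropped). Among the 148 named genes, the calls were limited to Sik1, Apold1, Ppp1r10, Nr4a1, Egr1, Cd163 and Casq1. DESeq2 called the first 6, at adjusted p values from 4.57e-05 to 0.0102. Over all settings the smallest adjusted p ran from 4.57e-05 to 0.843. The 647 genes at the nominal threshold were 1659 with voom sample weights and 399 to 950 as each library was left out, lowest without wild type sham replicate 2. The higher side made up 39.1% of them, 47.9% with RLE scaling, 50% without a filter and 36.4% to 51.5% as each library was left out. The 1930 called responses in wild type were 5730 with voom sample weights, 736 in wild type libraries alone and 0 to 2756 as each library was left out, with 4 and 0 when wild type sham replicate 1 or 2 was, and 1256 when replicate 4 of wild type TAC was. The 648 in knockout were 1898 with voom sample weights, 1342 with DESeq2, 1458 in knockout libraries alone and 1 to 1361 as each was left out, with 1 and 183 for knockout sham replicates 1 and 2, 200 and 374 for replicates 2 and 5 of knockout TAC, and 1361 for replicate 7 of wild type TAC. Leaving out 1 sham library leaves 1 in its group, which is then assumed to vary like the others.

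Whether the label's replicate number pairs samples could not be settled. None of 13 same-numbered pairs had deviations correlated above 0.1 (r from -0.199 to 0.049). The deviations of the 2 libraries in a sham group mirror each other, so these values are not independent and cannot exclude pairing. With a replicate block the interaction had 0 calls and 498 genes at the nominal threshold, the wild type response 22 calls and the knockout response 367, so that the order of these counts turned there and in the fits within a genotype. The medians of matrix genes (0.12), activated fibroblast genes (0.25) and monocyte genes (0.15) were positive there, those of core macrophage (-0.31), neutrophil (-0.42) and complement genes (-0.09) lay nearer 0, and 2 core macrophage genes were lower at the nominal threshold, against 10. The epicardial median was 0.05 with the stricter filter and 1.20 with none, and the monocyte median was -0.29 with voom sample weights. In 3383 refits of the 148 named genes under 23 settings, 3332 kept their direction and stayed uncalled. In 19 a gene newly passed the threshold with its direction kept, and in 32 an uncalled estimate changed sign. No named gene was called in the edgeR fit of all libraries, so none could lose a call. The cause of these changes was not tested. Low genes limit the depth: Fos, S100a8 and Ncapg lay under 10 CPM in every library.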
